A study of Mus musculus with 2 samples.

Results

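The type I interferon response genes are a list of 34 genes that cells switch on when interferon binds its receptor, listed by name. Of these, 32 were in the feature table of 32287 genes, and Mx1 and Mx2, antiviral GTPases, were not measured. The genes were read in 1 droplet library of GFP+ cells from hind limb muscle (tibialis anterior and gastrocnemius) taken 7 days after sciatic nerve crush. The mice were S100GFPtg and male, and carried no other allele or agent by the labels; the transgene puts green fluorescent protein under the S100B promoter, yet many sorted cells were not Schwann cells. Muscle was digested enzymatically while warm, and viable cells were sorted on GFP before capture. The series text names a single crushed mouse and the methods name pooled males, so the number of animals is not certain. Their age is given as 2 months, but the methods give an older range for crushed mice, so it is not certain either. With 1 library there is no replicate and no test between classes. Counts of the matching GFP- library were not analysed here, and no uninjured library was, so whether the crush changed any of these genes was not measured.

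Type I interferons signal through the receptor pair IFNAR1 and IFNAR2 to the kinases JAK1 and TYK2. STAT2 and IRF9 then act in a complex that binds the interferon-stimulated response element in promoters and turns on genes that sense, mark, bind or cut foreign nucleic acid. Macrophages are known for both making and answering these cytokines. Several of the genes also answer type II interferon or innate sensors directly, so the list names a response and not the cytokine behind it.

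The library held 36400 barcodes and 170648616 UMIs (unique molecular identifiers, each counting 1 captured transcript), with a median of 2130 UMIs per barcode. Barcodes with at least 5000 UMIs numbered 8894, of which 8701 passed the filter on genes and mitochondrial UMIs, at a median of 11624 UMIs. Gates on marker UMIs that included no member placed 6076 of them in myeloid classes and 2034 in 6 non-myeloid classes, and 459 that met the gates of more than 1 lineage were kept apart. The GFP+ and GFP- libraries shared 372 barcode sequences, 1.02% of the GFP+ ones. Levels are given as CPM, the UMIs of a gene per 1000000 UMIs of a class, with exact Poisson 95% intervals in parentheses that cover counting error only. They treat UMIs as independent, so they cover neither the uneven spread of a gene over barcodes nor the spread between animals. Because the tags come from transcript ends, CPM was not divided by gene length.

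The classes were resident-like macrophages led by Lyve1, Fcna, Cd163 and Folr2 (3269 barcodes), macrophages high in MHC class II genes (889), Ly6c2 and Chil3 monocyte-like cells (408), Spp1, Fabp5 and Gpnmb lipid-associated-like macrophages (454), Cd209a dendritic-like cells (234), Xcr1 dendritic-like cells (216) and Treml4 patrolling monocyte-like cells (34). A further 546 myeloid barcodes led by Ear2, Dcstamp and Areg met no subset gate and stayed unnamed. Outside the myeloid lineage there were mesenchymal-like cells (1215), tenocyte-like cells (409), satellite-like cells (251), Schwann-like cells (73), smooth muscle-like cells (48) and endothelial-like cells (38). Ccr7 dendritic-like cells (14), neutrophil-like cells (7) and plasmacytoid-like cells (5) were too few for more than single values. Ifnb1, which is no gate marker, led the MHC class II high class by fold, ahead of H2-Eb1, Ccl5 and Cd72, and the endothelial-like cells were led by Ccl21a and Mmrn1, which are known from lymphatic vessels, beside Ptprb and Flt1. The gates were set after the data had been seen.

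Summed over the 32 members and taken over classes of at least 30 barcodes, interferon response transcripts were most abundant in endothelial-like cells, patrolling monocyte-like cells and monocytes, and least abundant in Schwann-like cells. The sum came to 3905 CPM (3697 to 4121) in endothelial-like cells, 3467 CPM (3249 to 3696) in patrolling monocytes and 3355 CPM (3302 to 3408) in monocytes, of which the last pair have overlapping intervals. Resident macrophages held 3082 CPM (3065 to 3099) and MHC class II high macrophages 3062 CPM (3027 to 3098), levels whose intervals overlap. Below them stood Cd209a dendritic cells at 2859.8 CPM (2801 to 2919), mesenchymal cells at 2330.4 CPM (2309 to 2352) and lipid-associated macrophages at 1499 CPM (1474 to 1525). Xcr1 dendritic cells (1275 CPM, 1240.4 to 1311), satellite cells (1185 CPM, 1144 to 1228), tenocytes (1013 CPM, 985 to 1041), smooth muscle cells (988 CPM, 904 to 1078) and Schwann cells (543 CPM, 489 to 601) closed the order, with the last below every other class. In Xcr1 cells a single barcode supplied 19.4% of the list UMIs.

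The sum depends on 1 gene. Ifitm3 (chr7:141009590-141010744, build GRCm38.p6), a membrane protein that blocks virus entry at endosomes, made up 42.8% of all list UMIs in deep barcodes. Without it the order of the macrophage classes turned: MHC class II high macrophages held 2181 CPM (2151 to 2211), resident macrophages 2032 CPM (2018 to 2046) and monocytes 1287 CPM (1254 to 1320.0). Patrolling monocytes fell to 882 CPM (774 to 1002), close to lipid-associated macrophages at 908 CPM (888 to 928), and the 5 plasmacytoid-like barcodes stood at 4277 CPM (3736 to 4874), of which Bst2 made up 3479 CPM, with 1 barcode holding 29.0% of their list UMIs. Among non-myeloid classes endothelial cells kept the lead at 1384 CPM (1261 to 1515), ahead of mesenchymal cells at 921 CPM (907 to 934) and Schwann cells at 385 CPM (339.8 to 435), and satellite cells came last at 222 CPM (205 to 241).

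Per barcode, after each was thinned at random to 5000 UMIs so that depth was equal, the median list count was 13 UMIs in resident macrophages and 14 in monocytes. Lipid-associated macrophages had a median of 6 and Schwann cells of 2. The share of barcodes with at least 10 list UMIs was 66.3% (64.6 to 67.9) in resident macrophages, 68.9% (64.1 to 73.3) in monocytes, 68.8% (62.4 to 74.7) in Cd209a dendritic cells and 55.6% (52.2 to 58.9) in MHC class II high macrophages. It was 27.1% (23.1 to 31.4) in lipid-associated macrophages and 10.2% (6.49 to 15.01) in Xcr1 dendritic cells. Without Ifitm3 the share fell to 16.7% (13.2 to 20.6) in monocytes and 19.2% (14.4 to 24.9) in Cd209a cells, against 38.5% (36.8 to 40.1) in resident macrophages. Single barcodes lay far above these values, up to 249 of 5000 UMIs in monocytes and 210 in MHC class II high macrophages.

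**Figure D1:**
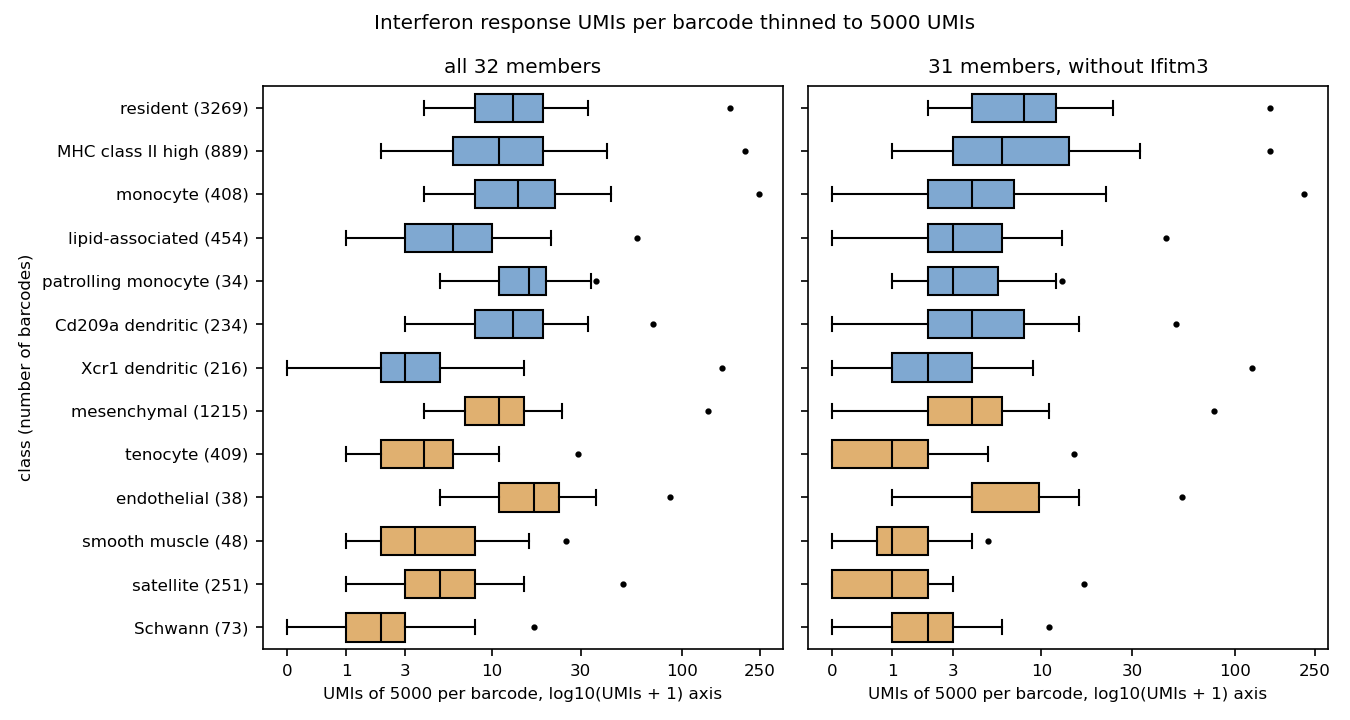
List UMIs per barcode after thinning to 5000 UMIs, on a log10(UMIs + 1) axis, for all 32 members (left) and without Ifitm3 (right), in myeloid (blue) and non-myeloid (orange) classes. Boxes span the quartiles with the median as a line, whiskers the 5th to the 95th percentile, and the dot is the highest barcode. With all members the medians are 13 in resident macrophages and 14 in monocytes, and without Ifitm3 they are 8 and 4.

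Isg15 (chr4:156199424-156200818, GRCm38.p6), the ubiquitin-like protein that is attached to other proteins during the response, was present in every class. Its level was 176 CPM (168 to 185) in MHC class II high macrophages, 157 CPM (118 to 205) in endothelial cells and 153 CPM (142 to 164) in monocytes, where the wide endothelial interval overlaps both others. Resident macrophages held 121 CPM (118 to 124), mesenchymal cells 30.3 CPM (27.9 to 32.8) and tenocytes 3.72 CPM (2.24 to 5.81). Usp18, the protease that removes ISG15 and damps receptor signalling, ranged from 5.19 to 12.5 CPM over resident, MHC class II high, lipid-associated, monocyte, Cd209a, Xcr1, mesenchymal and endothelial classes. Herc6, the mouse ligase of ISG15, was at 29.6 CPM in resident macrophages, 12.1 CPM in monocytes and 17.7 CPM in Schwann cells.

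The IFIT proteins bind viral RNA, and their genes Ifit1, Ifit2, Ifit3 and Ifit3b lie side by side on chromosome 19. Ifit1 was at 33.8 CPM (30.2 to 37.8) in MHC class II high and 23.8 CPM (22.3 to 25.4) in resident macrophages, against 5.63 CPM in monocytes. Ifit2 was at 39.8 CPM (26.3 to 58.0) in Schwann cells, from 27 UMIs, and at 25.7 CPM (22.5 to 29.1) in MHC class II high macrophages, and these intervals overlap. Ifit3 and Ifit3b stayed at or below 26.7 CPM in every named class of at least 30 barcodes, with the highest Ifit3 value resting on 9 endothelial UMIs. Ifit3 and Ifit3b are near-identical copies, so reads that match both cannot be assigned to either and their split is uncertain. Rsad2, which makes a chain-ending nucleotide that stalls viral polymerases, and its neighbour Cmpk2, a mitochondrial nucleotide kinase, lie next to each other on chromosome 12. Rsad2 was at 65.5 CPM (60.4 to 70.9) in MHC class II high macrophages, 23.2 CPM (21.7 to 24.8) in resident macrophages and 3.63 CPM (2.83 to 4.58) in mesenchymal cells. These intervals do not overlap, but they leave out the spread of the gene over barcodes. Cmpk2 did not follow this order, at 5.37, 5.07 and 6.34 CPM in the same classes.

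Promoters of several of these genes hold the element that the STAT2 and IRF9 complex reads, and the windows below are shown because they carry it before a RefSeq start site. The 250 bases before the RefSeq start sites (build GRCm38.p6) were searched on both strands for the run of letters GAAA, any 2 bases, GAAA, the core of the interferon-stimulated response element. Of the 25 members with a RefSeq promoter, 10 held a match (Isg15, Ifit1, Ifit3, Ifit3b, Rsad2, Oas1a, Oas3, Stat2, Bst2 and Trim30a), 40.0%, against 3.46% of all 27025 genes with a promoter. Each sequence runs 5′ to 3′ on the strand of its gene, and capitals mark every match to these letters or, where it lies on the opposite strand, to its reverse complement.
Isg15, chr4:156200855-156200916 (minus strand): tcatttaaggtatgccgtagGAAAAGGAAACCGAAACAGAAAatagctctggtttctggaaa
Ifit1, chr19:34640765-34640833 (plus strand): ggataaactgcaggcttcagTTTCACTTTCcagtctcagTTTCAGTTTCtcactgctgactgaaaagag
Ifit3, chr19:34583353-34583436 (plus strand): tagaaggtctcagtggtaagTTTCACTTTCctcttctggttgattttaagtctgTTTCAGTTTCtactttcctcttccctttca
Ifit3b, chr19:34607749-34607832 (plus strand): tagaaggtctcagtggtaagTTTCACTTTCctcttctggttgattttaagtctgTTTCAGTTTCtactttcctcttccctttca
Rsad2, chr12:26456543-26456592 (minus strand): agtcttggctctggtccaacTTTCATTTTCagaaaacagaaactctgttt
Bst2, chr8:71537567-71537622 (minus strand): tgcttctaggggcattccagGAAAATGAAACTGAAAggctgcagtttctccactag
Isg15 held 3 overlapping matches, Bst2 and Ifit1 held 2 each, and Rsad2 held 1. The Ifit3 and Ifit3b windows are the same in every letter, and both lie inside the span annotated for their gene, ahead of a later start site than the first one. Ifih1, Oasl1, Ifit2, Cmpk2 and Ifitm3 had no such match in this window, which says only that these letters are absent there.

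Among the sensors of foreign nucleic acid, Ifih1 was higher in resident and MHC class II high macrophages than in every other class, with the unnamed myeloid barcodes next at 257 CPM (245 to 269). Ifih1 (chr2:62595618-62646255), which encodes the RNA sensor MDA5, was at 528 CPM (513 to 543) in MHC class II high and 411 CPM (405 to 417) in resident macrophages. It was lower in Cd209a dendritic cells (141 CPM, 128 to 155), lipid-associated macrophages (103 CPM, 96.1 to 109.7) and monocytes (92.4 CPM, 83.8 to 102), and at 33.1 CPM (30.6 to 35.8) in mesenchymal cells. Of the other RNA sensors of the family, Ddx58 did not share this order. Ddx58, encoding RIG-I, was at 24.0 CPM in resident macrophages and 21.5 CPM in mesenchymal cells, with 65.2 CPM (40.8 to 98.7) in endothelial cells. Dhx58, encoding LGP2, stayed at or below 14.8 CPM in all classes of at least 30 barcodes. It was at 14.5 CPM in both resident and MHC class II high macrophages, 12.1 CPM in monocytes, 10.4 CPM in lipid-associated macrophages and 3.68 CPM in mesenchymal cells. Ifi204 (chr1:173747293-173767069), a DNA-binding protein of the PYHIN family, was highest in mesenchymal cells at 358 CPM (349.6 to 366), above resident macrophages at 296 CPM (291 to 301), while tenocytes held 29.6 CPM and Schwann cells no UMI, which allows up to 4.43 CPM. Zbp1, a sensor of Z-form nucleic acid, was at 74.2 CPM (66.6 to 82.5) in monocytes and 62.8 CPM (36.6 to 100.5) in patrolling monocytes, against 21.9 CPM (20.5 to 23.4) in resident macrophages.

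Oligoadenylate synthetases make the small messenger that activates RNase L, and their enzymes were largely myeloid. Oas1a, Oas2 and Oas3 had 23, 33 and 9 UMIs over the 2034 non-myeloid barcodes. Oas2 was highest in resident macrophages at 20.8 CPM (19.4 to 22.3), while Oas3 stood at 14.9 CPM (11.6 to 18.9) in monocytes and 15.01 CPM (11.5 to 19.3) in Xcr1 dendritic cells against 4.65 CPM (4.00 to 5.37) in resident macrophages. Oasl1 (chr5:114923143-114937911), a synthetase-like protein that limits Irf7 translation, stood at 236 CPM (226 to 246) in MHC class II high macrophages, 215 CPM (210.2 to 219) in resident macrophages and 3.48 CPM (2.70 to 4.41) in mesenchymal cells. Its neighbour Oasl2 was more even, at 31.6 CPM in resident macrophages and 15.4 CPM in mesenchymal cells. Eif2ak2, encoding the kinase PKR that stops translation on double-stranded RNA, ranged from 4.43 CPM in Schwann to 50.4 CPM in endothelial cells. Isg20, an RNA exonuclease, was at 24.8 CPM (20.1 to 30.2) in Xcr1 dendritic cells, where the highest 1% of barcodes held 86.4% of its thinned UMIs.

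Membrane restriction factors and transcription factors followed other orders. Ifitm3 was at 2584 CPM (2397 to 2783) in patrolling monocytes, 2521 CPM (2355 to 2696) in endothelial cells and 2068 CPM (2026 to 2109.5) in monocytes, against 1050.1 CPM (1040.0 to 1060.2) in resident macrophages and 158 CPM (129 to 191) in Schwann cells. Bst2, or tetherin, which holds budding virus at the cell surface, was at 3479 CPM (2993 to 4021) in the 5 plasmacytoid-like barcodes, a cell type it is known to mark, and at 424 CPM (357 to 499) in endothelial cells. Irf7, the factor that amplifies interferon production, was at 171 CPM (78.2 to 325) in plasmacytoid-like barcodes, 45.0 CPM (39.1 to 51.6) in monocytes and 21.1 CPM (19.6 to 22.5) in resident macrophages. Stat2 and Irf9, parts of the complex that drives the response, were at 47.5 and 35.6 CPM in resident macrophages and at 9.47 and 11.3 CPM in lipid-associated macrophages. Stat2 was highest in Xcr1 dendritic cells at 71.3 CPM (63.3 to 80.1).

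Among the remaining members, Parp14, an ADP-ribosyltransferase, was at 156 CPM in MHC class II high and 154 CPM in resident macrophages, and Trim30a, a tripartite-motif protein, at 101 CPM in resident macrophages. Rtp4, which can damp interferon signalling, was at 53.3 CPM (51.0 to 55.6) in resident macrophages and 19.0 CPM in monocytes. Xaf1, a partner of the apoptosis inhibitor XIAP, was at 69.3 CPM (51.0 to 92.2) in Schwann cells, from 47 UMIs, against 23.1 CPM (21.7 to 24.7) in resident macrophages, but its interval overlaps that of endothelial cells at 32.6 CPM (16.3 to 58.3). Over the 13 named classes of at least 30 barcodes, Xaf1 and Ifit2 were the members with their highest value in Schwann cells. Ifi35 differed little between resident macrophages and mesenchymal cells, at 28.9 and 29.3 CPM. Ifi44 was rare, with 158 UMIs in deep barcodes, and stood at 23.7 CPM (10.2 to 46.7) in endothelial cells, from 8 UMIs. The heat map of member levels by class shows these orders side by side.

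**Figure D2:**
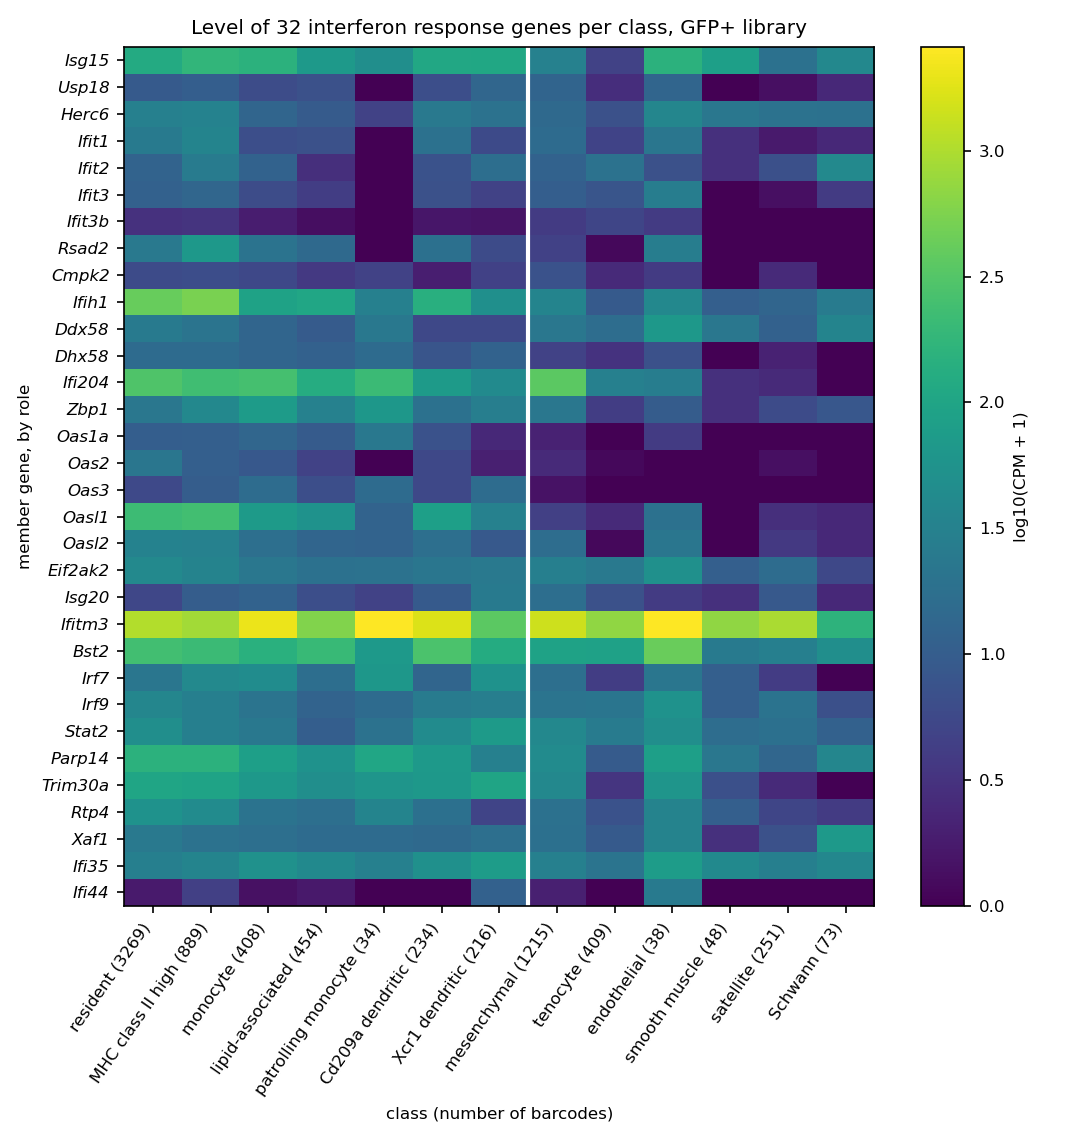
Level of each of the 32 members, ordered by role, in 13 classes (number of barcodes in parentheses) as log10(CPM + 1), with a white line between myeloid (left) and non-myeloid (right) classes. Ifitm3 is the brightest row in most classes, Ifih1 and Oasl1 are bright in resident and MHC class II high macrophages, and the Oas rows are dark to the right of the line.

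Taking all myeloid against all non-myeloid classes, 14 of the 32 members were at least 2-fold higher in myeloid cells and 0 were at least 2-fold lower. Over all features with at least 10 UMIs, 18.7% were 2-fold higher and 32.6% were 2-fold lower, 51.4% in all. The median log2 ratio was 0.86 over members and -0.27 over all features. Oasl1 had the widest gap, 164 CPM against 3.06 CPM, a log2 ratio of 5.74 (5.44 to 6.06), where exact intervals again cover counting error only. Oas3 came next at 4.38 (3.44 to 5.52) on the log2 scale, and then Ifih1 with 325 CPM against 26.2 CPM, a log2 ratio of 3.63 (3.52 to 3.74). Isg15 differed by 2.16 (2.05 to 2.26) on the log2 scale, from 121 CPM against 27.0 CPM. In contrast, Isg20 (-0.95, -1.14 to -0.75) and Ifit3b (-0.82, -1.25 to -0.39) were the members lowest in myeloid cells, short of the 2-fold line. Ifitm3 (-0.26, -0.28 to -0.24), Ddx58 (-0.14, -0.29 to -0.0033), Ifi204 (-0.12, -0.16 to -0.077), Ifit2 (-0.066, -0.25 to 0.12), Ifit3 (0.054, -0.16 to 0.27), Usp18 (-0.061, -0.28 to 0.16) and Cmpk2 (-0.10, -0.39 to 0.20) lay near or below 0. For the whole list the log2 ratio was 0.48 (0.47 to 0.50), and without Ifitm3 it was 1.22 (1.20 to 1.24). Macrophage RNA was low in non-myeloid barcodes, from which those that met the myeloid gate had been removed: C1qa, C1qb and C1qc summed to 69.7 CPM there, 0.606% of the resident level of 11499 CPM, at median depths of 12992 and 11297 UMIs. Beside that, Oasl1 stood at 1.42% of its resident level, Ifih1 at 6.39%, Isg15 at 22.4% and Ifi204 at 84.1%.

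Monocytes and resident macrophages differed in both directions, and members were past 2-fold about as often as other features. Of 32 members, 4 were at least 2-fold higher in monocytes and 9 at least 2-fold lower, against 8.3% and 34.6% of all features (42.9% in either direction). The median log2 ratio was -0.70 over members and -0.47 over all features. The 4 higher members were Zbp1, Oas3, Isg20 and Irf7, with log2 ratios of 1.76 (1.58 to 1.94), 1.68 (1.26 to 2.09), 1.30 (0.82 to 1.76) and 1.10 (0.87 to 1.32), and Ifitm3 lay just inside the 2-fold line at 0.98 (0.95 to 1.01). Irf7 rested in part on few barcodes. It was at 874 CPM in the 5 monocytes with at least 5 thinned UMIs of the Ifit, Rsad2 and Cmpk2 genes, against 27.0 CPM in the 374 with none. Zbp1 was at 291 against 57.8 CPM there. Thinned counts of Oas3 had a Pearson r of 0.90 with those of Ifit3b, which had 4 UMIs in the class. The count of 4 changed with the barcodes kept. Without the 1% of barcodes with the highest list level (404 of 408 monocytes kept) 2 members were higher and 10 lower, and with a minimum of 10000 UMIs 2 were higher and 14 lower. With doubled gate thresholds 6 were higher and 13 lower, and with mixed barcodes kept 4 were higher and 6 lower. The lower ones included Ifih1 (-2.15, -2.29 to -2.01), Ifit1 (-2.08, -2.70 to -1.52), Oasl1 (-1.57, -1.73 to -1.41) and Rtp4 (-1.48, -1.81 to -1.18). The summed list was 0.12 (0.10 to 0.15) on the log2 scale, and it turned to -0.66 (-0.70 to -0.62) without Ifitm3 and to -0.70 as the median of single members.

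Lipid-associated macrophages held less of nearly the whole list than resident macrophages. None of the 32 members was 2-fold higher and 17 were at least 2-fold lower, against 7.79% and 35.8% of all features (43.6% in either direction). The median log2 ratio was -1.12 over members and -0.50 over all features. Ifit2 (-2.62, -3.44 to -1.90), Oas2 (-2.49, -3.05 to -1.99), Stat2 (-2.33, -2.66 to -2.01), Ifih1 (-2.00, -2.10 to -1.90) and Oasl1 (-2.00, -2.14 to -1.86) were among the lower ones. Above 0 stood only Ifi35 (0.50, 0.32 to 0.67), Zbp1 (0.47, 0.26 to 0.67), Isg20 (0.34, -0.16 to 0.80) and Oas3 (0.26, -0.23 to 0.72), of which the last pair had intervals that include 0. The summed list differed by -1.04 (-1.07 to -1.01) on the log2 scale. Lipid-associated barcodes were deeper, with a median of 18201 UMIs against 11297. After thinning to equal depth, their median list count was 6 UMIs against 13 in resident macrophages. The log2 ratio of the sum was -1.08 with a minimum of 10000 UMIs per barcode and -1.01 without barcodes over 30000 UMIs. Beyond these settings, the part of depth in this difference was not tested. The share of members that were lower was above that of all features.

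MHC class II high macrophages held nearly the same sum as resident macrophages when Ifitm3 was counted. Taking both directions together, their members were past 2-fold no more often than other features. Of 32 members 4 were at least 2-fold higher and 1 at least 2-fold lower, against 6.26% and 13.6% of all features (19.9% in either direction). The share of higher members was above that of all features, and the share of lower ones was below it. The median log2 ratio was 0.077 over members and -0.15 over all features. Ifi44 (2.18, 1.42 to 2.95), Rsad2 (1.50, 1.35 to 1.64), Ifit2 (1.18, 0.94 to 1.40) and Isg20 (1.07, 0.68 to 1.45) were the higher ones, and Oas2 (-1.11, -1.44 to -0.79) was the lower one. Without the 1% of barcodes with the highest list level 3 members were higher and 1 lower, and without barcodes over 30000 UMIs 5 were higher and 1 lower. Irf7 (0.88, 0.70 to 1.06) and Zbp1 (0.80, 0.61 to 0.98) lay inside the 2-fold line. The log2 ratio of the sum was -0.0093 (-0.028 to 0.0093), and without Ifitm3 it was 0.10 (0.080 to 0.12).

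**Figure D3:**
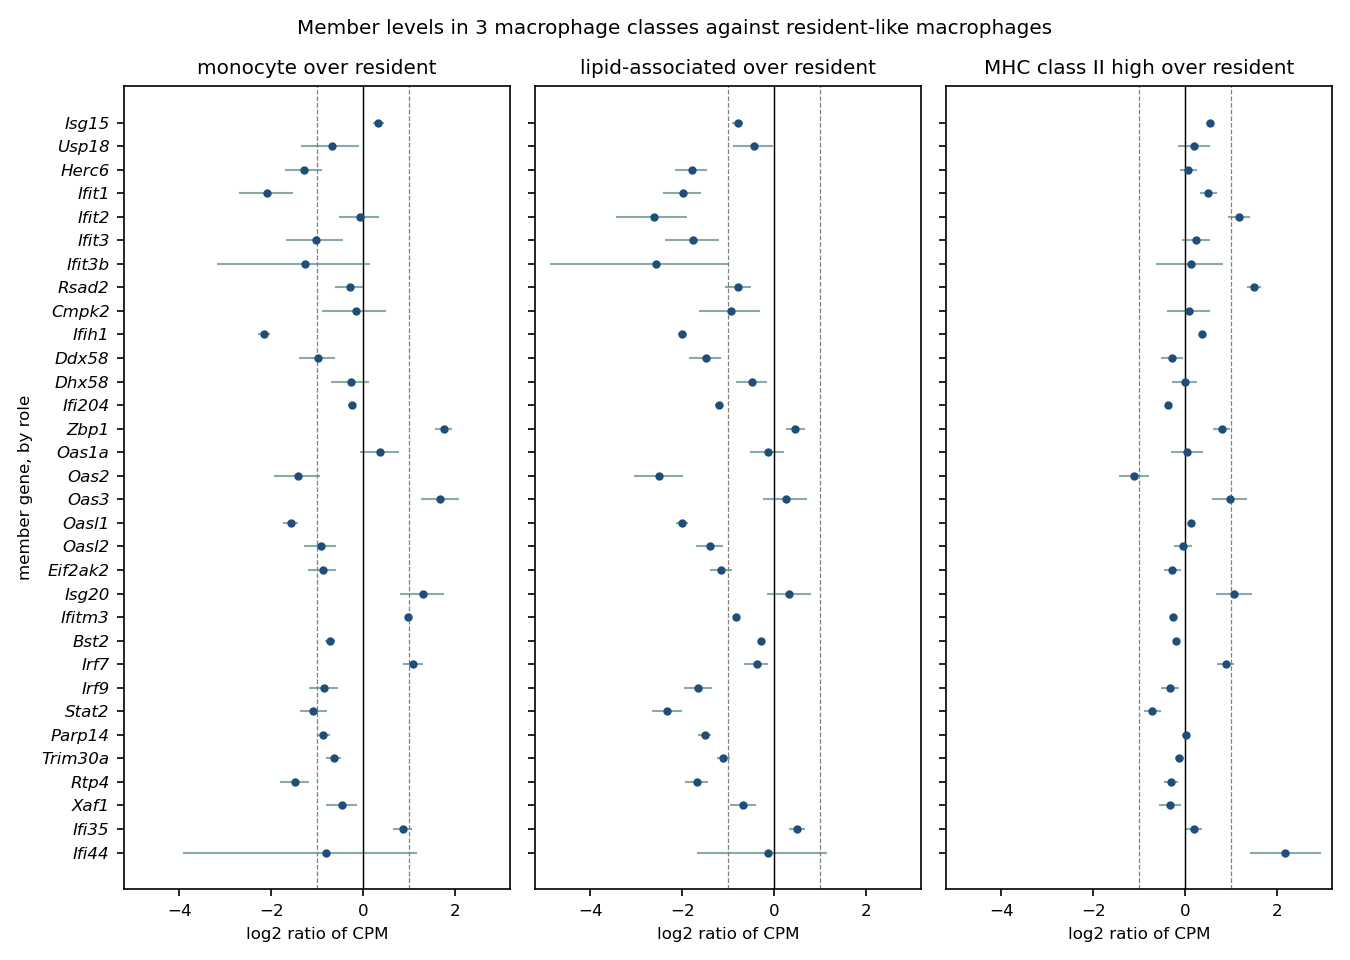
Log2 ratio of CPM of each member in monocytes, lipid-associated macrophages and MHC class II high macrophages, each over resident macrophages, with exact 95% intervals for counting error as bars, a solid line at 0 and dashed lines at 2-fold. In lipid-associated macrophages 17 members lie past the lower line and 0 past the upper one, while monocytes have 9 and 4.

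Endothelial-like and mesenchymal-like cells were compared as the 2 non-myeloid classes with the highest sums. Of 31 members with at least 10 UMIs, 11 were at least 2-fold higher in endothelial cells and 5 at least 2-fold lower, against 20.3% and 34.9% of all features (55.2% in either direction), and the medians were 0.79 and -0.10 on the log2 scale. Isg15 (2.38, 1.94 to 2.78), Bst2 (2.20, 1.94 to 2.44), Ddx58 (1.60, 0.91 to 2.22) and Rsad2 (2.88, 1.69 to 3.88) were higher. Ifi204 was lower, at -3.75 (-4.88 to -2.82). The other 4 below the line, Oas2, Isg20, Cmpk2 and Zbp1, had 0, 1, 1 and 3 endothelial UMIs with intervals that reach above 0, and Oas1a, above the upper line, had 1 UMI and an interval of -3.97 to 4.03. With a minimum of 10000 UMIs, which left 13 endothelial barcodes, 6 members were higher and 10 lower, so the direction in which more members lay is not settled. The endothelial values rest on 38 barcodes and 337549 UMIs in all, and 1 barcode gave 6.75% of the list UMIs. No Ptprc UMI, the pan-leukocyte marker CD45, was counted in these barcodes, and C1q stood at 59.3 CPM.

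Within a class the members spread over barcodes in different ways. Ifitm3 was found in 94.1% of resident barcodes thinned to 5000 UMIs, Ifi204 in 65.9% and Bst2 in 61.3%. Ifih1 was found in 48.0%, with a variance 6.61 times the mean, where pure counting noise would give about 1. Rsad2 was found in 5.63%, Ifit2 in 2.84% and Ifit3 in 3.03%, with variance to mean ratios of 6.32, 4.05 and 3.88. A barcode without a UMI at this depth may still hold the transcript. The 1% of resident barcodes with the most UMIs of a gene, 33 barcodes, held 70.8% of Cmpk2, 64.7% of Ifit2, 62.1% of Ifit3 and 47.3% of Rsad2 UMIs. This share is larger for a gene counted in fewer barcodes also under pure counting noise, so it is not compared between genes.

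**Figure D4:**
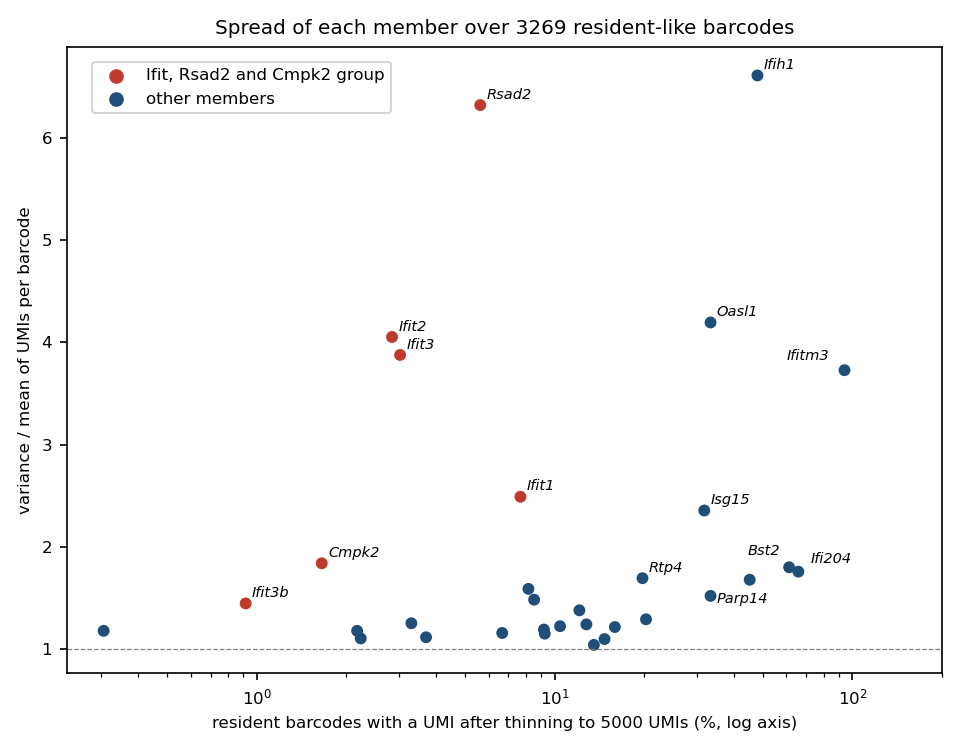
Each member in 3269 resident-like barcodes thinned to 5000 UMIs, by the percent of barcodes with a UMI (log axis) and the variance divided by the mean of its UMIs per barcode, with the Ifit, Rsad2 and Cmpk2 genes in red and a dashed line at 1. Ifih1 (6.61) and Rsad2 (6.32) have the highest ratios, at 48.0% and 5.63% of barcodes.

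Counts of the Ifit, Rsad2 and Cmpk2 genes went together across barcodes. Over 3269 resident barcodes the correlation of thinned counts (Pearson r, as a description, all barcodes being from 1 library and of equal depth) was 0.72 for Ifit2 and Ifit3, 0.62 for Ifit3 and Rsad2 and 0.59 for Rsad2 and Cmpk2. Ifih1 and Oasl1 had an r of 0.28 with each other, while Ifih1 and Ifit3 had 0.060. The median over all 496 pairs was 0.10, and 19 pairs reached 0.3. In 1215 mesenchymal barcodes Ifit3 and Rsad2 had an r of 0.65 and Isg15 and Ifit3 of 0.54. Among 408 monocytes 180 pairs reached 0.3, led by Ifit2 and Ifit3b at 0.95, a value that rests on the 4 Ifit3b UMIs of the class. Few monocytes carried these genes, with 5 barcodes holding 67.2% of the UMIs of the Ifit genes, Rsad2 and Cmpk2, and 1 barcode had 221 of 5000 UMIs of the list without Ifitm3, where the median was 4.

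Barcodes with at least 5 thinned UMIs over Ifit1, Ifit2, Ifit3, Ifit3b, Rsad2 and Cmpk2 were counted in each class, a range on a scale and not a cell type, set after these correlations were seen. There were 42 of 3269 resident macrophages, 1.28% (exact binomial 95% interval 0.927 to 1.73), and they held 40.5% of the UMIs of these genes. MHC class II high macrophages had 35 of 889, 3.94% (2.76 to 5.43), and the intervals of these classes do not overlap. Cd209a dendritic cells had 5 of 234 (2.14%, 0.697 to 4.92), the unnamed myeloid barcodes 10 of 546 (1.83%, 0.882 to 3.34) and endothelial cells 1 of 38 (2.63%, 0.0666 to 13.8), all with intervals that overlap that of resident macrophages. Lipid-associated macrophages had 2 of 454 and Xcr1 dendritic cells 2 of 216. Monocytes had 5 of 408, mesenchymal cells 9 of 1215 (0.741%, 0.339 to 1.40), and tenocytes, satellite, smooth muscle and Schwann cells 0. For 409 tenocytes a count of 0 allows up to 0.733%. In resident macrophages 58 barcodes lay just under the line with 3 or 4 UMIs and 15 just over it with 5 or 6, while 84.0% had none.

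Most of the 26 members that were not used to choose these barcodes were higher in them too. In resident macrophages 24 were at least 2-fold higher, where 8% of all features were, in MHC class II high macrophages 25, where 6.79% were, and in mesenchymal cells 25 of the 25 with at least 10 UMIs, where 10.6% were. The 1 member below the lower line in these 3 classes, Ifi44 in resident macrophages, where 28.1% of all features lay, had 0 UMIs in the chosen barcodes, and in the other two 0 members lay there, against 23.3% and 43.8% of all features. In resident macrophages, against barcodes with none of those UMIs, Isg15 was at 758 CPM against 94.9 CPM, a log2 ratio of 3.00 (2.85 to 3.15). Usp18 was at 91.4 CPM against 5.45 CPM, a log2 ratio of 4.07 (3.58 to 4.53), and Zbp1 at 208 CPM against 15.5 CPM, a log2 ratio of 3.75 (3.44 to 4.05). Irf7 was at 155 CPM against 15.5 CPM, a log2 ratio of 3.32 (2.97 to 3.66), while Ifitm3 was at 2538 CPM against 987 CPM, a log2 ratio of 1.36 (1.28 to 1.44) and Irf9 at 56.6 CPM against 34.4 CPM, a log2 ratio of 0.72 (0.16 to 1.23). In the 9 mesenchymal barcodes Isg15 was at 846 CPM against 19.3 CPM, a log2 ratio of 5.45 (5.13 to 5.77), and Usp18 at 194 CPM against 8.79 CPM, a log2 ratio of 4.46 (3.79 to 5.08). Irf9 in the 35 MHC class II high barcodes was an exception, at 25.9 CPM against 27.5 CPM, a log2 ratio of -0.082 (-1.16 to 0.83).

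Among the interferon ligands, only Ifnb1, which encodes interferon beta, was counted in number. The gene (chr4:88522025-88522794, GRCm38.p6) had 1108 UMIs in 335 of the 8701 deep barcodes. Of the other 20 ligand genes, Ifnk had 27 UMIs, Ifnz 4, Ifng, the type II interferon, 3, and Ifna2 and Ifnab 1 each, while the others had none. Ifnb1 stood at 56.9 CPM (52.2 to 61.9) in MHC class II high macrophages, where 107 of 889 barcodes held a UMI and 1 barcode held 32. Among the other named classes of at least 30 barcodes, Cd209a dendritic cells followed at 17.4 CPM (13.1 to 22.6) and resident macrophages at 9.92 CPM (8.96 to 10.95), and their intervals do not overlap. The unnamed myeloid barcodes stood at 12.2 CPM and the 14 Ccr7 dendritic-like barcodes at 13.9 CPM, both between these values. In lipid-associated macrophages the level was 1.85 CPM (1.06 to 3.00) and in monocytes 1.73 CPM (0.747 to 3.41), against 0.204 CPM (0.0557 to 0.523) in mesenchymal cells. At 5000 UMIs per barcode, 8.89% of MHC class II high and 2.57% of resident macrophages held an Ifnb1 UMI, against 0.165% of mesenchymal cells. The intervals of these 3 shares do not overlap, 7.098 to 10.95, 2.05 to 3.17 and 0.0199 to 0.593.

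Members were then read in barcodes with at least 3 Ifnb1 UMIs and in those with none, a division made after the counts were seen. In MHC class II high macrophages (47 against 782 barcodes), 15 of 32 members were at least 2-fold higher in the Ifnb1 barcodes and 0 were 2-fold lower, where 5.8% and 18.8% of all features were. Isg15 was at 661 CPM against 132 CPM, a log2 ratio of 2.32 (2.15 to 2.49). Ifih1 was at 1544 CPM against 437 CPM, a log2 ratio of 1.82 (1.71 to 1.93), and Oasl1 at 719 CPM against 189 CPM, a log2 ratio of 1.93 (1.77 to 2.09). Rsad2 was at 324 CPM against 44.9 CPM, a log2 ratio of 2.85 (2.59 to 3.11), and Ifit1 at 167 CPM against 22.5 CPM, a log2 ratio of 2.89 (2.52 to 3.26). The listed higher members also included Irf7, at 151 CPM against 30.7 CPM, a log2 ratio of 2.29 (1.92 to 2.65), but 1 barcode held 51.2% of its UMIs there. Of the 15, Ifi44 and Oas3 rest on 7 and 11 UMIs, of which 1 barcode held 57.1% and 45.5%, and 1 barcode held 43.3% of the 30 Isg20 UMIs. Parp14 (1.07, 0.83 to 1.30), Oasl2 (1.07, 0.48 to 1.61) and Herc6 (1.03, 0.46 to 1.55) lay just past the 2-fold line, with intervals that reach below it. The Ifnb1 barcodes were deeper, with a median of 11301 UMIs against 9560, and the part of depth was not tested. Ifit3 and Cmpk2 did not follow, with log2 ratios of 0.20 (-1.05 to 1.23) and -0.70 (-3.78 to 1.24).

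In resident macrophages (42 against 3115 barcodes), 7 of 32 members were at least 2-fold higher in the Ifnb1 barcodes, against 6.43% of all features. Ifih1 was at 1172 CPM against 379.6 CPM, a log2 ratio of 1.63 (1.52 to 1.73), Oasl1 at 539.6 CPM against 197 CPM, a log2 ratio of 1.46 (1.29 to 1.61), and Isg15 at 355 CPM against 111 CPM, a log2 ratio of 1.67 (1.47 to 1.87). The transcription factor Irf7 was at 25.5 CPM against 20.3 CPM, a log2 ratio of 0.32 (-0.49 to 1.03), and Bst2 at 218 CPM against 238 CPM, a log2 ratio of -0.13 (-0.38 to 0.11). Of the 7, Oas3 rests on 6 UMIs and its interval includes 0 (1.12, -0.34 to 2.28), and Ifit2 on 18 UMIs, of which 1 barcode held 55.6%. Below the lower line, where 30.6% of all features lay, were 2 members. Ifi44 had 0 UMIs in the Ifnb1 barcodes with an upper limit of 3.02 on the log2 scale, which shows no decrease, and Ifit3 had 1 UMI, at 1.59 CPM against 10.3 CPM, a log2 ratio of -2.70 (-8.01 to -0.21). The Ifnb1 barcodes were deeper, with a median of 13678 UMIs against 11206, and the part of depth in the choice of barcodes was not tested. In Cd209a dendritic cells 6 barcodes held at least 3 Ifnb1 UMIs, and 13 of 28 members were at least 2-fold higher there, against 11.4% of all features. That count rests on few barcodes, since 1 barcode held 100% of the Ifit2, 90.9% of the Ifit3, 87.5% of the Ifi204 and 71.4% of the Rsad2 UMIs. The 5 members below the lower line (Isg20, Irf7, Usp18, Ddx58 and Zbp1), where 37.2% of all features lay, were each at 0 UMIs with upper limits of 1.32 to 3.42 on the log2 scale, which shows no decrease.

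Barcodes high in the Ifit genes and barcodes with an Ifnb1 UMI overlapped only in part. Of the 42 resident barcodes with at least 5 UMIs of the Ifit, Rsad2 and Cmpk2 genes, 6 held an Ifnb1 UMI, where 154 of all 3269 did (4.71%). Of the 35 in MHC class II high macrophages 16 did, where 107 of 889 did (12.0%). Both shares were above those of their class. The overlap with the barcodes of at least 3 Ifnb1 UMIs was not counted. In monocytes and mesenchymal cells, 0 of 5 and 0 of 9 such barcodes held one, where 7 of all 408 and 4 of all 1215 did. With Ifnb1 so rare in these classes, the counts of 0 show no separation. In the Ifit barcodes Usp18, Zbp1, Irf7 and Trim30a had log2 ratios of 4.07, 3.75, 3.32 and 2.13 in resident macrophages, while in the Ifnb1 barcodes they had -0.78, 0.61, 0.32 and 0.42. The -0.78 of Usp18 rests on 3 UMIs (-3.07 to 0.78). In MHC class II high macrophages the same genes had 2.66, 3.34, 4.09 and 2.26 in the Ifit barcodes and 0.94, 1.48, 2.29 and 0.49 in the Ifnb1 barcodes, where Irf7 and Usp18 rest on 86 and 10 UMIs, of which 1 barcode held 51.2% and 40.0%. The resident value of Irf7 in the Ifnb1 barcodes rests on 16 UMIs, of which 1 barcode held 62.5%. The divisions also had genes in common, since Ifit1 (1.56, 1.05 to 2.02) and Rsad2 (1.77, 1.30 to 2.20), which chose the Ifit barcodes, were over 2-fold higher in the resident Ifnb1 barcodes as well. In resident macrophages Ifih1 and Oasl1 had similar ratios in both divisions, 1.43 and 1.73 for the Ifit barcodes and 1.63 and 1.46 for the Ifnb1 barcodes. Both divisions draw their reference from the same class of the same library.

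**Figure D5:**
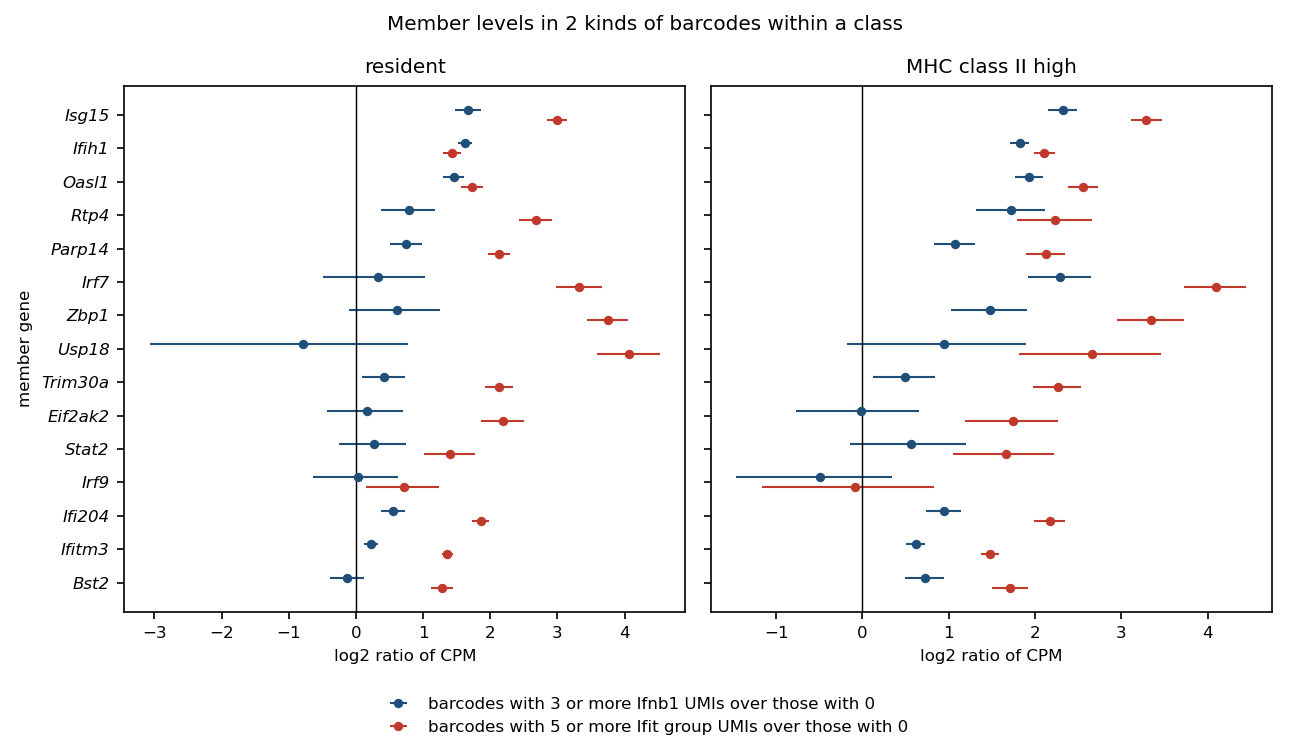
Log2 ratio of CPM of 15 members within resident (left) and MHC class II high (right) macrophages, for barcodes with at least 3 Ifnb1 UMIs over those with none (blue) and for barcodes with at least 5 UMIs of the Ifit, Rsad2 and Cmpk2 genes over those with none (red), with exact 95% intervals for counting error. In resident macrophages Usp18 lies at 4.07 in red and -0.78, from 3 UMIs, in blue, while Ifih1 lies at 1.43 and 1.63.

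The machinery upstream of the members was present in all larger classes. Ifnar1 was at 73.3 CPM (70.6 to 76.0) in resident macrophages, 78.8 CPM (70.9 to 87.3) in monocytes and 29.1 CPM (26.7 to 31.6) in mesenchymal cells, and its partner Ifnar2 at 174, 241 and 122 CPM. Jak1, the kinase of both interferon receptors, was higher in mesenchymal cells (707 CPM, 696 to 719) than in resident macrophages (391 CPM, 384 to 397). In the myeloid against non-myeloid comparison, 4 of 8 receptor and kinase genes with at least 10 UMIs were 2-fold higher in myeloid cells and none 2-fold lower, beside the background of 18.7% and 32.6%.

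Sensors of nucleic acid outside the list had classes of their own. Tlr7, the endosomal receptor for single-stranded RNA, was at 164 CPM (159.6 to 168) in resident macrophages and 119 CPM in MHC class II high macrophages, against 50.5 CPM in lipid-associated macrophages. Aim2, a sensor of DNA in the cytosol, was at 71.3 CPM in resident and 73.0 CPM in MHC class II high macrophages and 4.19 CPM in mesenchymal cells. Tlr3, the receptor for double-stranded RNA, was at 139 CPM (128 to 151) in Xcr1 dendritic cells, a cell type it is known to mark, and at 7.93 CPM in resident macrophages. Over 7 measured sensor and adaptor genes, 4 were 2-fold higher in myeloid cells, where 18.7% of all features were, and 6 were 2-fold lower in lipid-associated than in resident macrophages, where 35.8% of all features were. The median log2 ratio of the sensors in lipid-associated macrophages was -1.41, beside -1.12 for the members.

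Of 46 further type I response genes, 45 were in the feature table and 44 had at least 10 UMIs in the myeloid against non-myeloid comparison. There, 23 were at least 2-fold higher in myeloid cells and 2 at least 2-fold lower, with a median log2 ratio of 1.13, beside 18.7%, 32.6% and -0.27 over all features. Ifitm2, a relative of Ifitm3 and the gene of this list with the most UMIs, was at 1175 CPM in resident macrophages, 1612 CPM in monocytes and 1011 CPM in mesenchymal cells. Slfn2, of the Schlafen family, was at 614 CPM in resident macrophages and 9.25 CPM in mesenchymal cells, and Ifi27l2a at 824 and 300.0 CPM. Ifi207, a relative of Ifi204, was at 1611 CPM in resident macrophages and 361 CPM in mesenchymal cells. The chemokine Ccl12 was at 890.1 CPM in resident and 119 CPM in monocyte-like cells, and Cxcl10, a chemokine for T cells, at 849 CPM (829.9 to 867) in MHC class II high and 453 CPM (446 to 459.6) in resident macrophages. Ly6a, also called Sca-1, was the reverse, at 1321 CPM in mesenchymal and 11.6 CPM in resident cells. In lipid-associated against resident macrophages, 20 of these 44 genes were 2-fold lower and 1 was 2-fold higher, where 35.8% and 7.79% of all features were. In monocytes against resident macrophages 7 were lower and 8 higher, where 34.6% and 8.3% of all features were.

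Of 15 genes that answer mostly to type II interferon, 5 were 2-fold higher and 5 were 2-fold lower in myeloid than in non-myeloid cells, where 18.7% and 32.6% of all features were, with a median log2 ratio of -0.015. Irf1, a transcription factor and the gene of this list with the most UMIs, was at 170 CPM (166 to 174) in resident and 235 CPM (228 to 242) in mesenchymal cells. Iigp1, a GTPase that attacks parasite vacuoles, was at 183 CPM in mesenchymal, 447 CPM in endothelial and 21.2 CPM in resident cells. Cxcl9 was at 79.3 CPM in Xcr1 dendritic, 62.4 CPM in mesenchymal and 4.04 CPM in resident cells. The pathway lists share Socs1 and Irf1.

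Genes outside the list that most followed it from barcode to barcode were sought over 5020 resident, MHC class II high, lipid-associated and monocyte barcodes of equal depth, among 9817 genes. The 10 with the highest Pearson r with the summed list were Phf11d (0.47), Slfn5 (0.45), Ifi211 (0.43), Mndal (0.43), Phf11b (0.41), Ifi47 (0.41), Rnf213 (0.41), Ms4a4c (0.40), Ifi209 (0.37) and Phf11a (0.36). Of these, 7 were in the list of further type I response genes, while Mndal, Rnf213 and Phf11a were in no list used here. Without Ifitm3 in the sum, the r of Ms4a4c fell from 0.40 to 0.30 and that of Phf11d was 0.46. Pooled over 4 classes whose levels differ, these values mix differences between classes with those between barcodes. Within resident macrophages alone the r of the 10 genes ran from 0.17 (Phf11a) to 0.45 (Slfn5), with Phf11d at 0.33 and Ms4a4c at 0.24, and within monocytes from 0.34 (Mndal) to 0.74 (Phf11d). These correlations are across barcodes of 1 library and describe it.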

How the data were processed

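The authors deposited whole-number UMI counts per gene and barcode for 1 GFP+ droplet library. The submitters' processing notes name Cell Ranger 7.1.0, Seurat 4.30 and mm10, the matrix header names Cell Ranger 8.0.1, and the methods name both mouse builds. The study's own removal of ambient RNA and doublets is not in these raw counts. Barcodes with at least 5000 UMIs, more than 200 genes and under 10% mitochondrial UMIs were kept. Classes were gated on UMIs of fixed markers per 10000, with thresholds set after seeing the data. No doublet caller was run. Barcodes that met the gates of more than 1 lineage were set apart. Counts were summed per class to CPM with exact Poisson intervals, ratios have exact conditional binomial intervals and shares have Clopper-Pearson intervals, all at 95% and covering counting error only, in Python 3.11.15 with numpy 2.4.6 and scipy 1.17.1. A count of 0 was given a limit of 3 counts. Thinning to 5000 UMIs used a fixed seed. Features entered a comparison with at least 10 UMIs over both classes, and a gene counted as higher or lower past 2-fold. Class sums for monocytes over resident macrophages were also simulated as independent Poisson counts (16308 genes), the model for which the intervals are exact. There 96.4% of intervals held the true ratio, 96.5% of 200 genes changed 4-fold were past 2-fold, and so were 8.30% of unchanged genes. The simulation leaves out the uneven spread of members over barcodes, so it says nothing on that spread. Genes named are all members, the 10 genes most correlated with the sum and genes of the pathway lists, for which the rule asked for those of highest CPM. Further pathway genes (Ifnar1, Ifnar2, Tlr3, Ly6a, Ccl12, Cxcl10, Cxcl9 and Iigp1) and the Ifnb1 and Ifit divisions were chosen after their values were seen. The members and lists were chosen with earlier results of these data known. Positions and promoters are from RefSeq, GRCm38.p6. Alternatives changed the UMI minimum and maximum, filters, gates, thinning and summing.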

Additional observations from a re-analysis of the deposited data

How the results depend on the processing

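All values are from 1 library. The intervals hold counting error alone, without the spread of a gene over barcodes, and the spread between animals is unknown. The counts of members past 2-fold in either direction stayed within 1.5 times their value in all 5 comparisons under every alternative run, although monocytes against resident macrophages went from 4 higher and 9 lower members to 2 and 14 with a minimum of 10000 UMIs per barcode, to 6 and 13 with doubled gate thresholds and to 4 and 6 with mixed barcodes kept. The minimum of 10000 UMIs took myeloid against non-myeloid cells from 14 and 0 to 13 and 2, and endothelial against mesenchymal cells from 11 and 5 to 6 and 10, which turns the majority on 13 endothelial barcodes. The log2 ratio of the summed list in monocytes over resident macrophages turned from 0.12 to -0.0017 with that minimum and to -0.70 as the median of single members, and the cause was not tested. The other alternatives, the list without Ifitm3 and the classes without the 1% of barcodes with the highest list level, were chosen after seeing the data. Without Ifitm3, the ratio was -0.66 for monocytes, 0.10 for MHC class II high macrophages, -1.16 for lipid-associated macrophages, 1.22 for myeloid over non-myeloid cells and 0.59 for endothelial over mesenchymal cells. With doubled gate thresholds it was 0.24 for monocytes, 0.070 for MHC class II high macrophages, -1.12 for lipid-associated macrophages and 0.55 for myeloid cells. The minimum of 10000 UMIs gave -0.034, -1.08 and 0.42 in the last 3 of these. Medians of single members were 0.077, -1.12 and 0.86, and without the highest 1% of barcodes monocytes had 2 higher and 10 lower members and the sums gave -0.040, -1.07 and 0.47. With mixed barcodes kept the ratio was -1.01 for lipid-associated, 0.46 for myeloid and 0.64 for endothelial cells. Without barcodes over 30000 UMIs it was -1.01 for lipid-associated macrophages, and with no filter on genes or mitochondrial UMIs 0.50 for myeloid cells. The share of barcodes with at least 10 list UMIs was, in resident, MHC class II high, monocyte, Cd209a dendritic, lipid-associated and Xcr1 dendritic cells in that order, 25.7%, 26.3%, 34.6%, 24.8%, 6.61% and 5.09% after thinning to 2500 UMIs, 91.9%, 81.2%, 91.9%, 93.2%, 82.4% and 57.9% without thinning and 38.5%, 35.9%, 16.7%, 19.2%, 9.25% and 5.09% without Ifitm3. No paired analysis was possible because there is 1 library and no test was run.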

Other observations

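Cycling barcodes, those with proliferation markers, held a lower list level than the rest of the resident macrophages. The 39 cycling barcodes were at 2033 CPM (1935 to 2134) and the 3230 others at 3103 CPM (3086 to 3121). Among Xcr1 dendritic cells the order was the opposite, with 2899 CPM in 29 cycling barcodes against 870.3 CPM in 187 others, but 1 barcode held 42.8% of the list UMIs of those 29. In MHC class II high macrophages 13 cycling barcodes were at 2699 CPM against 3072 CPM in the others, and at 2166 CPM against 2181 CPM without Ifitm3. In mesenchymal cells 7 cycling barcodes were at 2194 CPM (1966 to 2440) against 2332 CPM, and in satellite cells 8 were at 694 CPM against 1229 CPM. Of the list UMIs of those 7 and 8, 1 barcode held 35.1% and 25%. Without Ifitm3 the mesenchymal order turned, to 1022 CPM (869 to 1195) against 920 CPM, while the satellite order stayed, at 159 against 228 CPM.

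Barcodes under 5000 UMIs, which entered no class, held 2227 CPM of the list, against 2476 CPM in the deep barcodes. The 459 barcodes that met the gates of more than 1 lineage were at 2162 CPM (2125 to 2198).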
